A study of Mus musculus with 10 samples.

Results

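The dose of TGF-β was examined in bone marrow-derived mast cells (BMMCs) that also received stem cell factor (SCF): 2 libraries given 10 ng/mL TGF-β with SCF were set against 2 given 1 ng/mL with SCF. The libraries were chosen by their labelled treatment alone and make up 4 of the 10 in the series. Wild type C57BL/6 mice, with an age entry of 6 to 8 weeks, were the source of the marrow. They had been kept in IL-3 for 6 to 8 weeks, at 5 ng/mL by the growth protocol and at 10 ng/mL by the source name, and every group carries IL-3 in its source name. Stimulation lasted 72 h. The reference group received SCF alone (100 ng/mL, 72 h, 2 libraries); the SCF dose is given for that group and not for the combinations. TGF-β without SCF was represented by 1 library at 1 ng/mL and 1 at 10 ng/mL, and IL-3 alone by 2 libraries with no stated time. Whether replicate libraries stem from separate cultures or animals is not stated, so each p-value here reflects the spread between the libraries alone, which may be technical. BMMCs are a culture model: they mature in a dish under IL-3 and not in a mucosa or connective tissue. The title of the series concerns a mucosal mast cell-like programme that TGF-β induces where SCF is present. The dose question is which of the genes that moved with TGF-β differed further at 10 ng/mL, and which already lay close to their 10 ng/mL level at 1 ng/mL.

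TGF-β binds a type II receptor (TGFBR2), which activates a type I receptor (TGFBR1). The active receptor phosphorylates SMAD2 and SMAD3, and these join SMAD4 and enter the nucleus. Early targets include inhibitors of the same pathway, such as SMAD7, the co-repressor SKIL and the membrane protein LDLRAD4. SCF is the ligand of KIT, the receptor on which mast cells depend for survival. Mast cells of mucosal surfaces are known for the chymases MCPT1 and MCPT2 and for the integrin αE (ITGAE) that pairs with β7 and binds E-cadherin. Connective tissue mast cells are known for MCPT4, CMA1, the tryptases and CPA3.

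Genes received 1628524 to 2323916 counts per library in the 4 libraries, in which 3 counts corresponded to 1.26 to 1.78 CPM, the usual scaling of a gene's count to its library's total, here after adjustment by the trimmed mean of M values. The first replicate was the deeper one at both doses. Mast cell identity was present throughout: Kit lay at 3092 to 3299 CPM, Fcer1a at 5487 to 7168 CPM and Cpa3 at 10100 to 13730 CPM. C1qa, S100a8, Mpo, Cd3e, Epx and Pf4, defining genes of other blood cell types, had 0 counts in all 4 libraries. Other listed markers of such cells were counted: Csf1r of macrophages at 8.42 to 10.9 CPM and Ncr1 of lymphocytes at 5.05 to 11.4 CPM. The basophil marker Cd200r3 was at 578 to 680.5 CPM. Gp1ba, of the erythroid and platelet list, was at 309 to 370.5 CPM. The other markers are given with the results they move with. In bulk RNA, fewer cells of a type and less RNA per cell cannot be told apart. Libraries of SmartSeq2 cDNA do not mark strand, so reads of a gene and of an antisense partner cannot be separated.

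Only 2 of 11247 tested genes differed between the doses in edgeR's quasi-likelihood test with Benjamini-Hochberg adjustment (0.0178% of genes; 0.00889% higher and 0.00889% lower). Gzmb, which encodes the cytotoxic serine protease granzyme B, fell from 1 to 10 ng/mL, and Id3, a dominant-negative helix-loop-helix inhibitor of transcription, rose. Both had also responded to TGF-β in general. Gzmb moved most of its way at 1 ng/mL. Id3 passed the test against SCF alone at 10 ng/mL and not at 1 ng/mL.

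Gzmb (chromosome 14, 56258838 to 56262260, minus strand, GRCm38) stood at 1693 and 1832 CPM with SCF alone, at 149 and 172 CPM with 1 ng/mL and at 43.4 and 67.3 CPM with 10 ng/mL. The 3 groups did not overlap, and each step of the dose lay below the one before. Between the doses Gzmb fell by 1.54 on the log2 scale (SE 0.23, 95% interval -2.03 to -1.05, adjusted p = 0.0349 by edgeR's quasi-likelihood test). Against SCF alone it had fallen by 3.46 (SE 0.22, adjusted p = 6.86e-08) at 1 ng/mL and by 5.00 (SE 0.24, adjusted p = 9.17e-10) at 10 ng/mL, in the same edgeR fit. The call between the doses was lost without replicate 1 of 1 ng/mL (adjusted p = 0.0685), replicate 2 of 1 ng/mL (0.123) or replicate 1 of 10 ng/mL (1.00), and with 5 changes of tool, filter, threshold or sample set, among them DESeq2 (0.125) and limma-voom (0.0618). Over all omissions and tools the difference stayed between -1.88 and -1.24.

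Id3 (chromosome 4, 136143497 to 136145755, plus strand) was at 33.0 and 45.4 CPM with SCF alone, at 47.2 and 86.1 CPM with 1 ng/mL and at 328 and 167 CPM with 10 ng/mL. Both 10 ng/mL libraries were above both 1 ng/mL libraries, but the nearest pair across the doses, 86.1 and 167 CPM, differed about as much as the libraries within a dose. Id3 rose by 1.93 between the doses (SE 0.30, 95% interval 1.30 to 2.56, adjusted p = 0.0349 by edgeR's quasi-likelihood test). Against SCF alone the difference was 0.75 (SE 0.35, adjusted p = 0.292, edgeR) at 1 ng/mL and 2.68 (SE 0.32, adjusted p = 3.72e-05) at 10 ng/mL. Leaving out replicate 1 of 1 ng/mL (adjusted p = 0.668) or replicate 1 of 10 ng/mL (1.00) ended this call, as did 6 changes of tool, filter, threshold or sample set, among them DESeq2 (adjusted p = 1.00) and limma-voom (0.0539). Of the other inhibitors of its family, Id1 was low, at 0.842 and 1.19 CPM with 1 ng/mL and 4.47 and 6.52 CPM with 10 ng/mL (2.38, SE 0.81, unadjusted p = 0.00897, adjusted p = 1.00 by edgeR). Id2 was at 317 and 329 CPM and at 365 and 372 CPM, a difference of 0.19 whose interval (-0.10 to 0.47) lay within 1.5-fold.

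**Figure D1:**
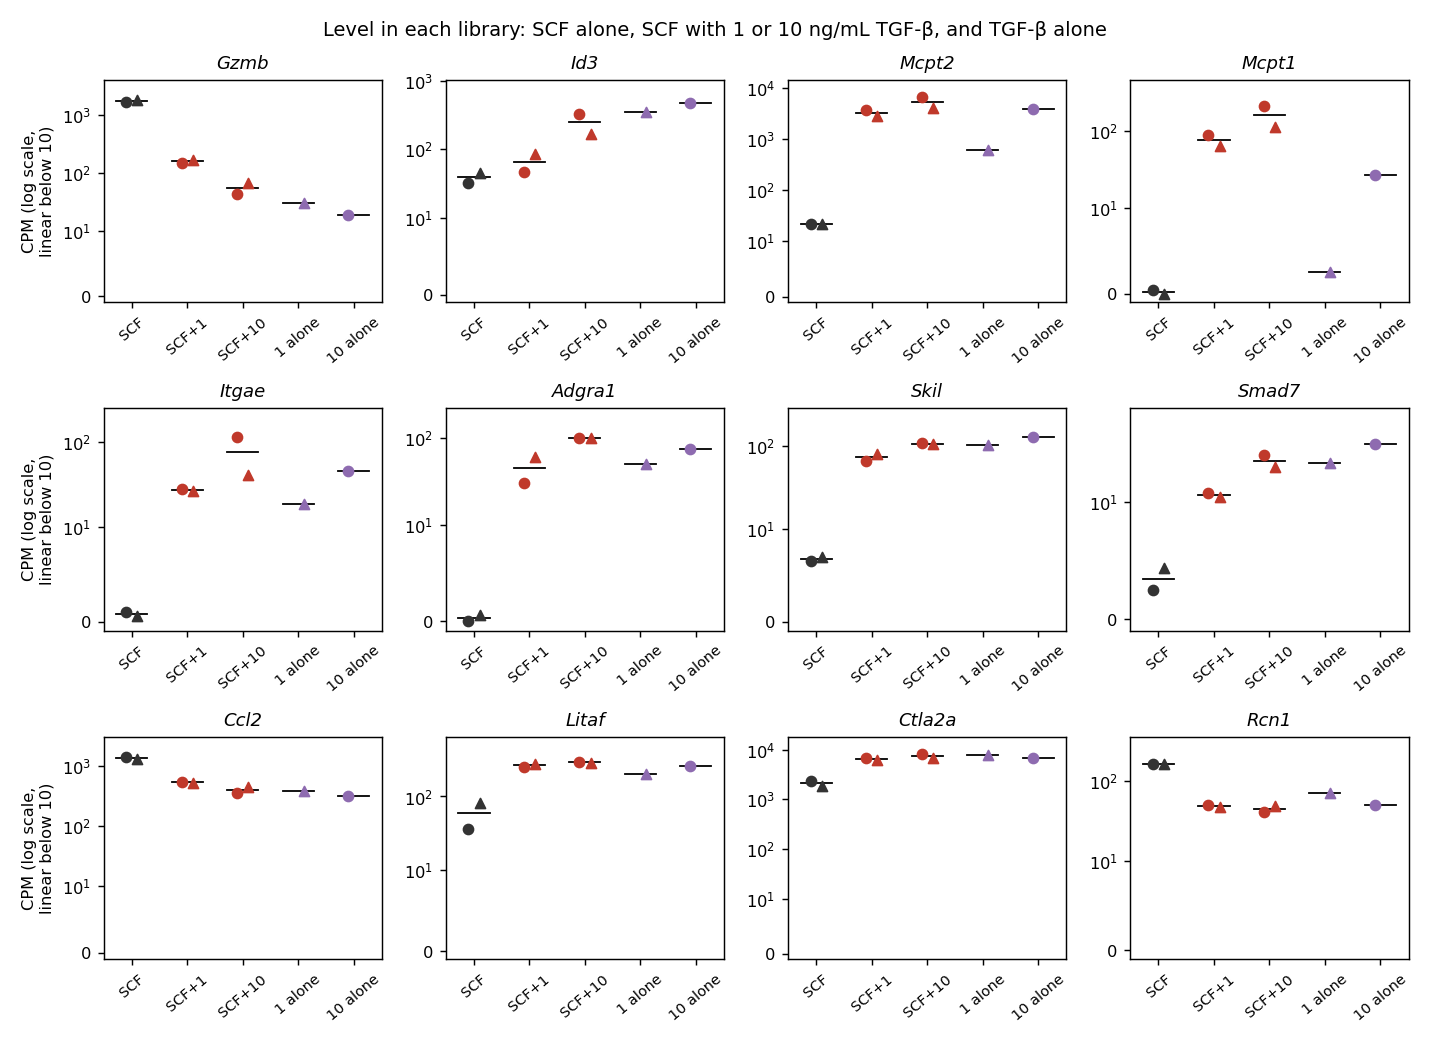
CPM of 12 genes in each library (vertical axis, log scale that is linear below 10 CPM) for SCF alone, SCF with 1 or 10 ng/mL TGF-β, and 1 or 10 ng/mL TGF-β alone. Circles are replicate 1, triangles replicate 2 and lines group means; Gzmb stepped down from 1763 to 160 and 55.3 CPM on average, whereas Litaf, Ctla2a and Rcn1 were level between the doses.

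Gzmb lies at one end of the chymase locus of chromosome 14, and the 8 tested genes of this locus, from Cma1 to Gzmb, did not share 1 dose pattern. In genomic order, the differences between 10 and 1 ng/mL were -0.02 for Cma1, -0.06 for Cma2, 1.08 for Mcpt1, 0.69 for Mcpt2, -0.07 for Mcpt4, 0.06 for Mcpt8, 0.07 for Ctsg and -1.54 for Gzmb. Of these only Gzmb passed the adjusted test. Cma1, the connective tissue chymase, was at 23650 and 18740 CPM with 1 ng/mL and at 23230 and 18590 CPM with 10 ng/mL, with an interval of -0.31 to 0.27. Mcpt4, its mouse β-chymase neighbour, was at 22.7 and 18.4 CPM and at 13.4 and 26.6 CPM, with overlapping doses and an interval of -0.86 to 0.71 that left 1.5-fold open to either side. Ctsg, cathepsin G, was a lower responder, at 71.6 and 90.8 CPM with SCF alone, 23.2 and 29.1 CPM with 1 ng/mL and 26.8 and 27.7 CPM with 10 ng/mL. Mcpt8, a basophil protease, was at 11.8 and 23.2 CPM and at 11.2 and 24.98 CPM. The chymases are close paralogs, so reads that fit several of them may be missing from the counts. The row for reads without a unique alignment took 38.2% to 43.2% of all counted reads or alignments in the 4 libraries.

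The 250 bases before the RefSeq start site (GRCm38.p6) are shown for 3 genes of the locus with different dose patterns: Mcpt1 (higher at 10 ng/mL in both libraries, chr14:56017714-56017963, plus strand), Mcpt4 (overlapping doses, chr14:56062311-56062560, minus strand) and Gzmb (lower, chr14:56262335-56262584, minus strand). In the first pair, capitals mark the longest stretch that both share without a mismatch, 53 bases long. In Gzmb, capitals mark an AP-1 motif.
Mcpt1: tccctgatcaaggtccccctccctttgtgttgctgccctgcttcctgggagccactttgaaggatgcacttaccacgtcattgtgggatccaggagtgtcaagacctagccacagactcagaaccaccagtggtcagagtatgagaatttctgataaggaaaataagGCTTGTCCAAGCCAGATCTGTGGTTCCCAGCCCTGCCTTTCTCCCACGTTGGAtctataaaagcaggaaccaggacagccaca
Mcpt4: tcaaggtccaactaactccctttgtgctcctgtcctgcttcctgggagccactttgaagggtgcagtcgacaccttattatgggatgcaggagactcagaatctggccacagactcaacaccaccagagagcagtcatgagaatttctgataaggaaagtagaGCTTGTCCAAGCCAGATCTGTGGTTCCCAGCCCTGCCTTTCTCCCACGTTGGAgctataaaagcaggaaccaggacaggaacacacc
Gzmb: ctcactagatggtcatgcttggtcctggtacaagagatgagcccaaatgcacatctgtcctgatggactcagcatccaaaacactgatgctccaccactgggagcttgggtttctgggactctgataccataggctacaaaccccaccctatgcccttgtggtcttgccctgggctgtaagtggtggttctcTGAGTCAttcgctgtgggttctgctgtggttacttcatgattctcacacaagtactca

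Motif letters were searched on both strands: the SMAD palindrome GTCTAGAC, the SMAD repeat CAGACA, the BMP response element GGCGCC, AP-1 as TGACTCA and GATA as AGATAA. The only match in these 3 windows was TGAGTCA, the reverse complement of TGACTCA, from base 193 of the Gzmb window. Only these exact letters were searched. The Mcpt1 and Mcpt4 windows both hold TGATAA, which differs from AGATAA in its first base and was not counted. Among all 32851 RefSeq promoters (250 bases before to 50 after a start), 5.2% held this AP-1 motif, 21.0% the SMAD repeat and 0.21% the SMAD palindrome. A promoter entry was found for 218 of the 305 responders described below, as for 8388 tested genes. The share of responders with a motif, and of tested genes with it, was 10.1% and 4.4% for AP-1, 24.3% and 18.4% for the SMAD repeat, 19.7% and 24.6% for the BMP response element, 10.1% and 7.8% for GATA and 0.92% and 0.3% for the SMAD palindrome. These matches describe letters in a window and say nothing of binding.

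The mucosal proteases Mcpt1 and Mcpt2 were near 0 or low with SCF alone, high at 1 ng/mL and higher again in both libraries of 10 ng/mL. Mcpt2 (chromosome 14, 56042041 to 56044642, plus strand) stood at 21.0 and 21.4 CPM with SCF alone, at 3779 and 2874 CPM with 1 ng/mL and at 6719 and 4050 CPM with 10 ng/mL. The step from SCF alone to 1 ng/mL, 7.29 on the log2 scale (SE 0.26), dwarfed that between the doses, 0.69 (SE 0.18, 95% interval 0.31 to 1.08, unadjusted p = 0.00151, adjusted p = 1.00 by edgeR). Mcpt1 (chromosome 14, 56017971 to 56020384, plus strand) had 0.501 and 0 CPM with SCF alone, 90.1 and 63.5 CPM with 1 ng/mL and 212 and 115 CPM with 10 ng/mL. Its difference between doses was 1.08 (SE 0.25, interval 0.55 to 1.61, unadjusted p = 0.000518, adjusted p = 1.00 by edgeR). Neither gene's doses overlapped, and replicate 1 of 10 ng/mL was the highest library for each. Without it the differences were 0.57 for Mcpt1 and 0.29 for Mcpt2. Without replicate 2 of 10 ng/mL both genes passed the adjusted test (edgeR adjusted p = 0.0393 for each).

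Itgae (chromosome 11, 73090583 to 73147446) followed the same order, with 1.00 and 0.63 CPM with SCF alone, 28.2 and 26.7 CPM with 1 ng/mL and 114 and 40.7 CPM with 10 ng/mL. The difference between doses was 1.502 (SE 0.36, interval 0.73 to 2.27, unadjusted p = 0.000702), and the 2 libraries of 10 ng/mL lay further apart than the lower of them lay from 1 ng/mL. Without replicate 1 of 10 ng/mL the difference was 0.57, and without replicate 2 of 10 ng/mL it passed the adjusted test (2.04, edgeR adjusted p = 0.0119). Itgb7, which encodes the β7 partner of αE and is named outside the rule for named genes, after its values were seen, was a lower responder, at 701 and 783 CPM with SCF alone. Its doses stood at 346 and 328 CPM and at 375 and 371 CPM, a difference of 0.15 within 1.5-fold. The difference between the 2 genes was not tested.

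Adgra1, an orphan adhesion G protein-coupled receptor (chromosome 7, 139834174 to 139878088), had 0 and 0.63 CPM with SCF alone, 30.3 and 61.1 CPM with 1 ng/mL and 101 and 101 CPM with 10 ng/mL. Its difference between doses was 1.17 (SE 0.26, interval 0.62 to 1.72, unadjusted p = 0.000332), which became 0.71 without replicate 1 of 1 ng/mL and 1.73 without replicate 2 of 1 ng/mL, where it passed the adjusted test (edgeR adjusted p = 0.027). Itga7, the laminin-binding integrin α7, had no count with SCF alone. Its doses overlapped, at 14.7 and 7.12 CPM with 1 ng/mL and 33.5 and 13.0 CPM with 10 ng/mL (1.06, SE 0.46, unadjusted p = 0.0355). The tryptase Tpsab1 was at 95.6 and 104 CPM with 1 ng/mL and at 121 and 112 CPM with 10 ng/mL, against 4.51 and 11.4 CPM with SCF alone. Its interval of -0.18 to 0.64 just exceeded 1.5-fold upward. Tpsb2, its close paralog with which it may share reads, was at 17880 and 14690 CPM and at 17040 and 14820 CPM (interval -0.30 to 0.24).

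Of the 10 genes listed as mucosal mast cell genes, 6 were tested. None passed the adjusted test in the main fit, which has no replicate block. With such a block on only the 6 libraries with SCF, Mcpt1, Mcpt2 and Itgae were called. In the main fit these 3 were higher at an unadjusted p under 0.05 (against 1.45% of all tested genes). The median difference of the 6 tested members was 0.42, beside -0.00418 over all tested genes. Itgb7, the lower responder described above whose difference lay within 1.5-fold, was also among them. Tph1, of serotonin synthesis, and Rgs13 differed by -0.02 and 0.14. All 10 listed connective tissue genes were tested, and 9 of them had a negative difference, with a median of -0.18. Cpa3, mast cell carboxypeptidase, was the only one of them with an unadjusted p under 0.05 (1.33% of all tested genes were lower at that level). It stood at 26740 and 23520 CPM with SCF alone, 13730 and 11400 CPM with 1 ng/mL and 10600 and 10100 CPM with 10 ng/mL. The difference of -0.28 (interval -0.52 to -0.04, unadjusted p = 0.0274) excluded 0 and still lay within 1.5-fold. Mrgprb1 was at 4.21 and 6.53 CPM and at 0.447 and 3.80 CPM, while Mrgprb2, the receptor for basic secretagogues, was at 10.1 and 3.56 CPM and at 7.15 and 8.15 CPM.

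Of the negative feedback genes of the pathway, Smad7, Skil and Ldlrad4 were higher in both libraries of 10 ng/mL than in both of 1 ng/mL, without passing the adjusted test. Smad7 was at 2.50 and 4.41 CPM with SCF alone, 12.2 and 11.3 CPM with 1 ng/mL and 28.2 and 21.7 CPM with 10 ng/mL (1.08, SE 0.32, interval 0.41 to 1.75, unadjusted p = 0.00333). Skil was at 6.51 and 6.93 CPM, then 65.7 and 79.5 CPM, then 107 and 105 CPM (0.55, SE 0.17, interval 0.20 to 0.91, unadjusted p = 0.0045). Skil had therefore covered 3.42 of 3.97 log2 units at 1 ng/mL and Smad7 1.79 of 2.87. Ldlrad4, which dampens receptor signalling, was at 1.00 and 1.26 CPM, then 12.2 and 18.4 CPM, then 36.6 and 18.5 CPM (0.89, SE 0.35, unadjusted p = 0.0222), so that its doses barely separated. Ski, the co-repressor related to Skil, was at 47.6 and 47.5 CPM and at 50.9 and 49.4 CPM. Of 14 genes listed as feedback genes and co-repressors, 10 were tested: 7 lay above 0 and 3 below, 3 were higher and 0 lower at an unadjusted p under 0.05 (1.45% and 1.33% of all tested genes), and the median difference was 0.36.

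Of 20 listed ligands, receptors and SMADs, 13 were tested, 7 lay above 0 and 6 below, and the median difference was 0.01. None had an unadjusted p under 0.05, a count near the background of 2.78% of tested genes. The core of the machinery is given here by genes named after their values were seen. Tgfbr1 was at 178 and 168 CPM with 1 ng/mL and at 177 and 161 CPM with 10 ng/mL, and Tgfbr2 at 178 and 186 CPM and at 186 and 180 CPM. Smad2 lay at 52.2 and 46.3 CPM and at 34.9 and 58.1 CPM. All 3 intervals were within 1.5-fold, but that of Smad2 exceeded it in 10 of 16 alternatives, with its farther bound at 1.03 on the log2 scale without replicate 2 of 10 ng/mL. Smad4 was low (8.00 and 9.496 CPM, then 9.38 and 8.15 CPM), and Smad3 was at 1.68 and 0.594 CPM and at 2.23 and 0.543 CPM, near the level of 3 counts. Of 25 listed TGF-β response targets, 18 were tested, with Id3 the only one called, Id1 the only other at an unadjusted p under 0.05, and a median difference of 0.10. Col18a1, a higher responder that encodes a basement membrane collagen, was at 12.5 and 27.1 CPM with SCF alone, 134 and 201 CPM with 1 ng/mL and 185 and 224 CPM with 10 ng/mL, with overlapping doses.

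To ask the same question of every gene that TGF-β moved, responders were defined by the mean of both doses against SCF alone: adjusted p under 0.05, at least 2-fold, and at least 20 CPM in one of the groups. The average of the doses does not use their difference, which therefore remains free to take either sign. Of the tested genes 1042 (9.26%) passed the adjusted test on this mean, and the whole rule took 305 (2.71%), 154 higher (1.37%) and 151 lower (1.34%). For comparison, 522 genes (4.64%) differed from SCF alone at 1 ng/mL and 941 (8.37%) at 10 ng/mL; both counts use the same SCF libraries. Of the 305 responders, 2 passed the adjusted test between the doses, namely Gzmb and Id3.

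**Figure D2:**
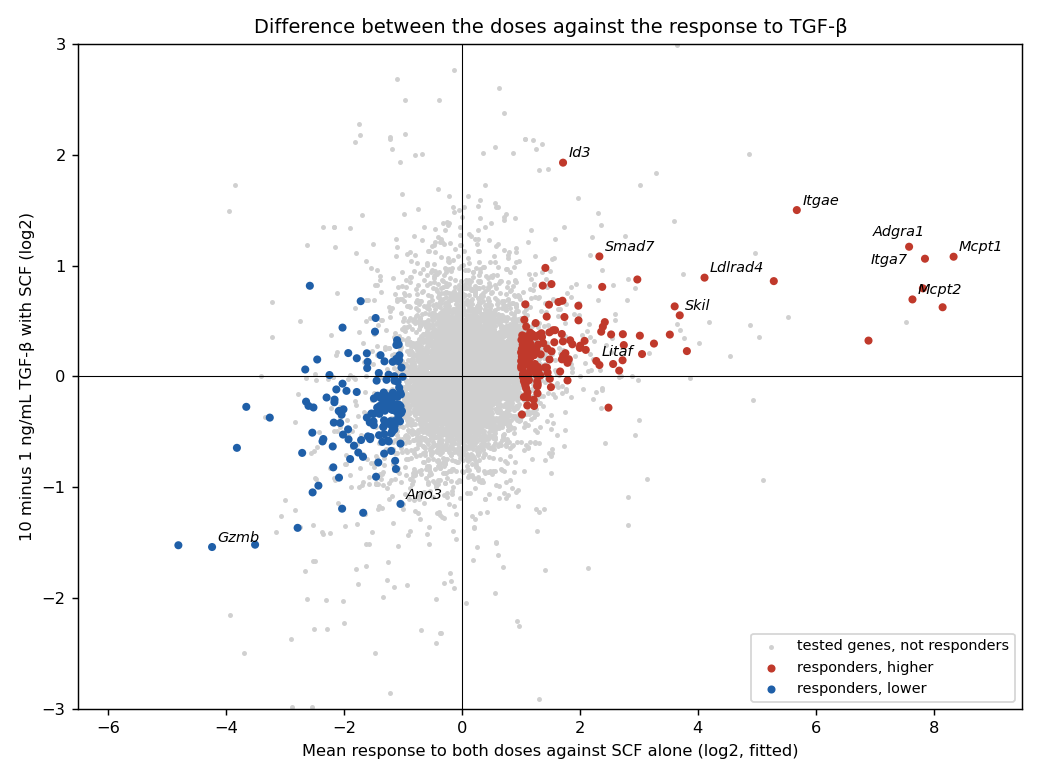
Difference between 10 and 1 ng/mL TGF-β with SCF (vertical axis, log2) against the mean response of both doses (horizontal axis, log2, fitted) for the tested genes; red and blue points are the 154 higher and 151 lower responders. Red points lie mostly above 0 and blue points mostly below it; fitted responses of genes with almost no counts in SCF alone depend on the prior count, and 8 other genes lie outside the axes.

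Most responders lay a little further from SCF alone at 10 ng/mL than at 1 ng/mL. Among higher responders 129 of 154 (83.8%) had a positive difference, against 49.1% of all tested genes, and among lower responders 124 of 151 (82.1%) had a negative one. The sizes were small. The median was 0.25 for higher and -0.30 for lower responders, which is 1.19-fold and 1.23-fold, against a median SE of 0.25 and 0.30 for a single gene. At the level of the whole set, the median response of higher responders was 1.23 at 1 ng/mL and 1.43 at 10 ng/mL, and that of lower responders -1.252 and -1.532.

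At an unadjusted p under 0.05, 50 of 305 responders lay further out at 10 ng/mL and 0 lay back toward SCF alone, where 2.78% of all tested genes, and 2.6% of those with at least 20 CPM, had such a p in either direction. Libraries of the doses did not overlap for 121 responders in the direction of the response and for 8 in the opposite direction, against 30.5% of all tested genes (15.5% higher and 15% lower at 10 ng/mL). The 72 responders of at least 4-fold included 66 that lay further out and 18 at an unadjusted p under 0.05, with a median of 0.38 toward the response. The 233 between 2-fold and 4-fold included 187 and 32, with a median of 0.25.

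The shift depended on 1 library in part. Without replicate 1 of 1 ng/mL, 61.1% of responders lay further out at 10 ng/mL and the median difference toward the response was 0.08 in place of 0.27. Responders were chosen anew in each omission, 339 in this one, so the set of genes changed with the library. With 1 library left at a dose, the mean used for this choice is also no longer independent of the difference between the doses. The omissions of the other 3 libraries gave 79.1% to 86.1% and medians of 0.29 to 0.33. Taken library by library over the 305 responders of the main fit, 83.9% were further out in replicate 1 of 10 ng/mL than in replicate 1 of 1 ng/mL. For replicate 2 of 10 ng/mL the share was 76.4%. Set against replicate 2 of 1 ng/mL these shares were 66.6% and 68.9%. Each library enters 2 of these pairs, so the 4 shares are not independent. Without replicate 1 of either dose, 27 responders in place of 50 had an unadjusted p under 0.05.

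After the data had been seen, genes were also chosen by other levels: those that differed between TGF-β alone, both doses averaged, and IL-3 alone (the levels of the 4 SCF libraries do not enter that contrast, but the spread behind its p-values was estimated from all groups with 2 libraries, these 4 included; 3.48% of tested genes passed the adjusted test; the 2-fold and 20 CPM rules were kept). Among the 75 higher genes so chosen, 64 (85.3%) had a positive difference between the doses with SCF, with a median of 0.28. Among the 113 lower genes, 87 (77.0%) had a negative one, with a median of -0.23. Of all tested genes 49.1% had a positive difference. At an unadjusted p under 0.05, 20 and 17 of the chosen genes lay further out and 0 and 1 went the opposite way. At that level 1.45% of all tested genes were higher and 1.33% lower. Of the 75 and 113 chosen genes, 41 and 48 were also responders by the first rule.

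Among lower responders, those with the smallest p after Gzmb include a vitamin kinase, a chemokine and a chemokine receptor, a growth factor and a complement protein, and none passed the adjusted test. Slc45a3, a solute carrier, was at 297 and 303 CPM with SCF alone, 126 and 122 CPM with 1 ng/mL and 88.9 and 80.4 CPM with 10 ng/mL (-0.55, SE 0.15, unadjusted p = 0.00214). Pdxk, pyridoxal kinase, was at 196 and 198 CPM, then 51.0 and 57.0 CPM, then 33.1 and 36.4 CPM (-0.63, SE 0.18, unadjusted p = 0.0023). The chemokine receptor Ccr1 was at 173 and 165 CPM, then 74.5 and 60.5 CPM, then 43.4 and 38.6 CPM (-0.73, SE 0.21, unadjusted p = 0.00281). In each of the 3 genes the groups formed 3 separate steps, and the first step was the larger.

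Angpt1, a ligand of the endothelial receptor TIE2, was at 204 and 169 CPM, then 90.5 and 89.0 CPM, then 57.7 and 67.9 CPM (-0.52). Properdin (Cfp), which stabilises the alternative complement convertase, was at 416 and 318 CPM, then 86.7 and 88.4 CPM, then 51.4 and 65.7 CPM (-0.59). Ano3, an anoctamin, differed in shape: 19.5 and 27.7 CPM with SCF alone, 17.7 and 16.0 CPM with 1 ng/mL and 8.04 and 7.06 CPM with 10 ng/mL (-1.15, SE 0.35). Here the step between the doses was larger than that from SCF alone to 1 ng/mL, which was -0.47. Hnrnpll, an RNA-binding regulator of splicing, was a higher responder, at 13.5 and 11.4 CPM, then 31.2 and 21.96 CPM, then 59.0 and 36.4 CPM. Its step from SCF alone to 1 ng/mL was 1.10 and that between the doses 0.83 (SE 0.26, unadjusted p = 0.00561 by edgeR). The latter did not pass the adjusted test.

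Of 22 listed cytokine and chemokine genes, 14 were tested and 6 were lower responders, against 1.34% of all tested genes. Between the doses 12 had a negative difference, as had 5724 of all 11247 tested genes, and the median was -0.22. At an unadjusted p under 0.05, 2 were lower, against 1.33% of all tested genes. Ccl2, a monocyte attractant, was at 1410 and 1336 CPM with SCF alone, 549 and 525 CPM with 1 ng/mL and 361 and 445 CPM with 10 ng/mL (-0.42, interval -0.71 to -0.12, unadjusted p = 0.00809). Ccl3 was at 53.6 and 37.8 CPM, then 26.1 and 21.4 CPM, then 14.8 and 19.0 CPM. Ccl6 reached an unadjusted p of 0.021 through 1 library only, at 5.90 and 26.1 CPM with 1 ng/mL against 5.36 and 5.97 CPM with 10 ng/mL. Tnf and Il6, named after their values were seen, lay within 1.5-fold between the doses, at differences of 0.02 and 0.03. Ltc4s, the enzyme that makes leukotriene C4, was at 32.5 and 30.3 CPM, then 16.8 and 14.2 CPM, then 8.49 and 8.15 CPM (-0.91, SE 0.32, unadjusted p = 0.0106); it was the only one of 11 tested eicosanoid genes at that level.

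**Figure D3:**
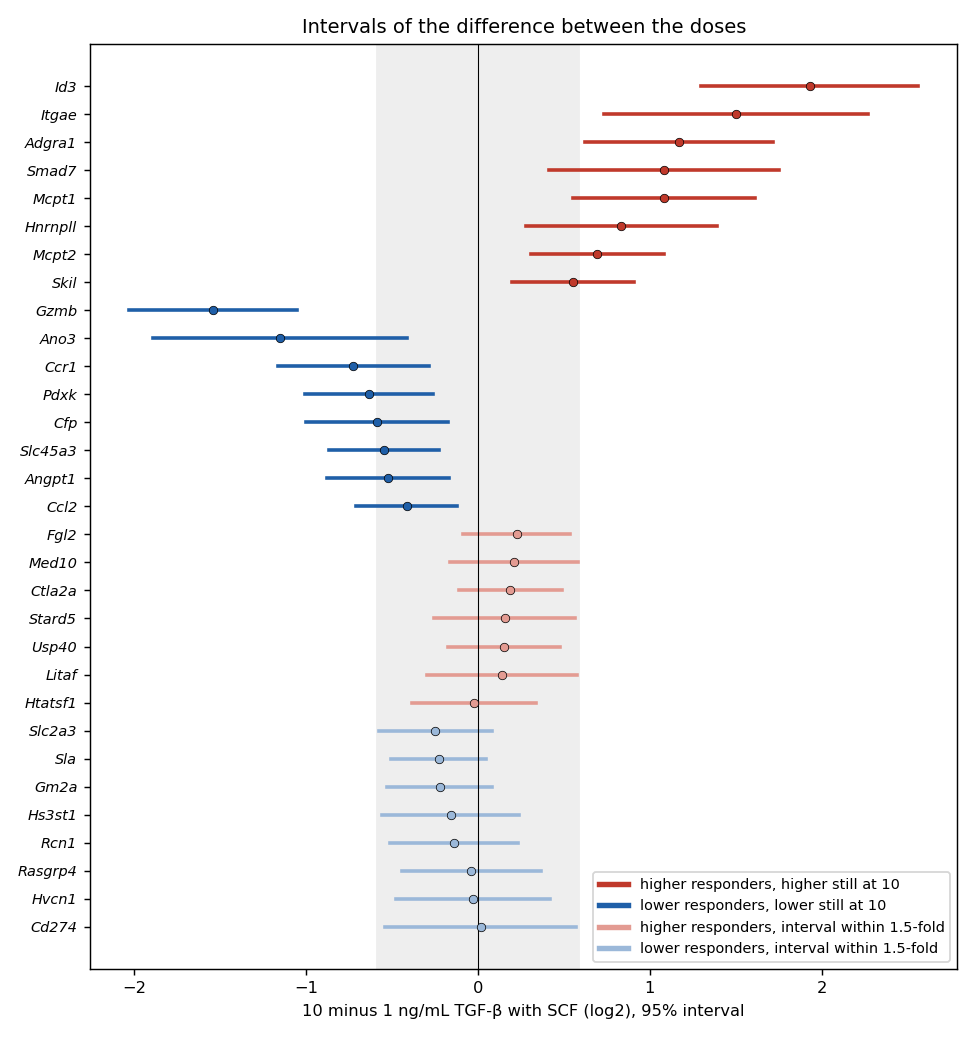
Difference between 10 and 1 ng/mL TGF-β with SCF (horizontal axis, log2) with its 95% interval for named responders; dark red and dark blue lines are higher and lower responders of smallest p that lay further out at 10 ng/mL, and pale lines are responders bounded within 1.5-fold, the grey band. The points of Id3 and Gzmb lie farthest from 0, and the pale intervals lie wholly inside the band.

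A p that misses a threshold does not show that 2 doses act alike, so responders close to their 10 ng/mL level at 1 ng/mL were sought by the interval instead: its 95% limits had to lie within 1.5-fold either way (0.585 on the log2 scale). This held for 54 responders, 32 higher and 22 lower, against 30.4% of all tested genes and 50.2% of those with at least 20 CPM. Another 202 responders met neither this rule nor an unadjusted p under 0.05, so these libraries left their dose pattern undecided. Of the 72 responders of at least 4-fold, 1 was bounded. The count of 54 became 30, 18, 24 or 18 without replicate 1 or 2 of 1 ng/mL or replicate 1 or 2 of 10 ng/mL, in that order. Responders were chosen anew for each omission.

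The bounded higher responder with the largest response was Litaf, which encodes a late endosomal membrane protein, at 36.0 and 81.3 CPM with SCF alone, 252 and 281 CPM with 1 ng/mL and 298 and 288 CPM with 10 ng/mL. Its difference between doses was 0.14 (interval -0.30 to 0.58). That interval exceeded 1.5-fold in 6 of 16 alternatives. The abundant Ctla2a, a cysteine protease inhibitor, was at 2377 and 1858 CPM, then 6809 and 6251 CPM, then 8255 and 6606 CPM (0.19, interval -0.11 to 0.49), with overlapping doses. The doses of Litaf did not overlap. Among the others, the lipid carrier Stard5, the Mediator subunit Med10, Fgl2, the deubiquitinase Usp40 and Htatsf1 had differences from -0.02 to 0.23.

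Among bounded lower responders, Rcn1, a calcium-binding protein of the endoplasmic reticulum, had the largest response, at 160 and 160 CPM with SCF alone, 50.5 and 46.9 CPM with 1 ng/mL and 41.1 and 47.8 CPM with 10 ng/mL (-0.14, interval -0.51 to 0.23). Rasgrp4, a Ras exchange factor of mast cells, was at 85.6 and 86.4 CPM, then 32.8 and 30.9 CPM, then 31.7 and 30.4 CPM (-0.04, interval -0.44 to 0.36). Gm2a, an activator of lysosomal ganglioside breakdown, was at 1614 and 1298 CPM, then 707 and 566 CPM, then 577 and 515 CPM. The glucose transporter Slc2a3, the heparan sulfate sulfotransferase Hs3st1, the proton channel Hvcn1, the immune checkpoint ligand Cd274 and the adaptor Sla had differences from -0.25 to 0.02. Bounds of this kind limit the difference to 1.5-fold and no further.

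Of 18 tested mast cell identity genes, 14 lay within 1.5-fold (30.4% of all tested genes, 50.2% of those with at least 20 CPM), 0 had an unadjusted p under 0.05, and the median was -0.04. Kit was at 3172 and 3249 CPM with 1 ng/mL and at 3092 and 3299 CPM with 10 ng/mL (-0.01, interval -0.26 to 0.24). Fcer1a, the ligand-binding chain of the IgE receptor, was at 7168 and 6277 CPM and at 6016 and 5487 CPM (-0.23, unadjusted p = 0.0623), with both 10 ng/mL libraries below both of 1 ng/mL. Gata2 was at 709 and 544 CPM and at 812 and 625 CPM. Hdc, which makes histamine, was the only lower responder of this list, at 123 and 82.6 CPM with SCF alone, and its doses overlapped, at 27.4 and 22.6 CPM and at 23.7 and 35.3 CPM. Cpa3, given above as a mast cell marker, is counted with the connective tissue genes and not in this list. It too was a lower responder, with a difference of -0.28 between the doses (unadjusted p = 0.0274 by edgeR's quasi-likelihood test). Of 23 tested granule and amine genes, 16 were bounded and the median was -0.08; Ndst2, which sulfates heparin, was at 321 and 211 CPM and at 234 and 191 CPM.

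All 44 listed cell cycle genes were tested. Of these 22 were bounded, close to the 50.2% of genes with at least 20 CPM, 0 had an unadjusted p under 0.05 and the median difference was 0.03. The 5 that were higher responders are named after their values were seen. Tyms, thymidylate synthase, was at 81.1 and 110 CPM with SCF alone, 168 and 215 CPM with 1 ng/mL and 196 and 245 CPM with 10 ng/mL. Mki67, Ccnb1, Bub1 and Kif11 differed between the doses by -0.03, -0.04, 0.32 and 0.17, and of the 5, Bub1 and Kif11 were not bounded. Cdc20, with the smallest p of the list, was at 86.7 and 103 CPM and at 110 and 125 CPM.

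Of 24 tested cholesterol synthesis genes, none was a responder, against 2.71% of all tested genes, 19 had a negative difference, the median was -0.21, and 11 were bounded. Hsd17b7 had the smallest p, at 26.5 and 16.6 CPM with 1 ng/mL and 8.49 and 13.6 CPM with 10 ng/mL (-1.01, SE 0.40, unadjusted p = 0.0212). Mvd was at 42.5 and 35.6 CPM and at 26.4 and 22.3 CPM. Feedback and immediate early genes of the MAPK pathway had 18 of 22 tested members above 0 and a median of 0.20. Their smallest p belonged to Spry2, an inhibitor of receptor tyrosine kinase signalling, at 6.32 and 9.496 CPM and at 15.2 and 16.8 CPM (1.04, SE 0.40, unadjusted p = 0.0179).

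**Figure D4:**
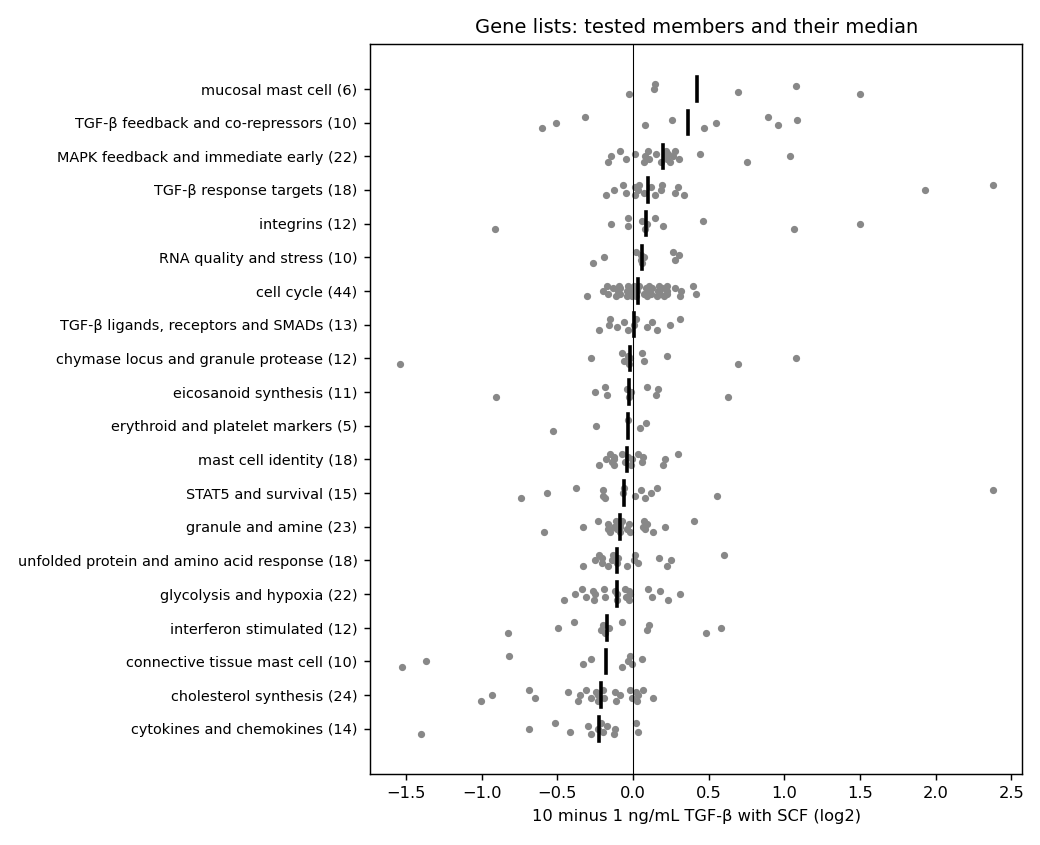
Difference between 10 and 1 ng/mL TGF-β with SCF (horizontal axis, log2) for the tested members of the lists with at least 5 such members; each point is a gene, the bar is the list's median and the number of tested members is in brackets. Medians run from -0.22 for cytokines and chemokines to 0.42 for mucosal mast cell genes.

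Other cell types were looked for beside these differences. The summed level of 13 macrophage markers was 55.6 to 97.9 CPM at 1 ng/mL and 51.8 to 89.6 CPM at 10 ng/mL, with 6 of them at 0 in all 4 libraries. One of them, Lyz2, was at 1.68 and 7.72 CPM and at 1.34 and 1.09 CPM (unadjusted p = 0.0369), and Ccl6 was highest in the same library, replicate 2 of 1 ng/mL. Itgb2, the common β2 integrin of leukocytes and a lower responder, was at 55.6 and 24.3 CPM with 1 ng/mL and 21.0 and 22.8 CPM with 10 ng/mL, so replicate 1 of 1 ng/mL set most of its difference of -0.91, which was -0.16 without it. The part of macrophages in these values was not tested. The 7 basophil markers summed to 690 to 759 CPM and 641 to 702 CPM. Most of this was Cd200r3, at 680.5 and 624 CPM and at 641 and 578 CPM. The 12 lymphocyte markers summed to 5.90 to 8.90 CPM and 6.70 to 12.5 CPM with 8 at 0, and the 11 neutrophil markers to at most 1.68 CPM. The 10 dendritic cell markers summed to 13.9 to 16.6 CPM at 1 ng/mL and 17.4 to 29.5 CPM at 10 ng/mL, sums that did not overlap, with 6 of them, Flt3, Xcr1 and Clec9a included, at 0 in all 4 libraries. Their 2 tested members were H2-Ab1, at 5.90 and 5.34 CPM and at 12.1 and 7.60 CPM, and Itgax, at 7.58 and 10.1 CPM and at 16.5 and 7.06 CPM; the part of such cells in the results was not tested. Eosinophil markers summed to 3.56 to 6.32 CPM and 3.26 to 5.81 CPM, fibroblast markers to 0 and to at most 0.543 CPM, and erythroid and platelet markers to 1760 to 2137 CPM and 1808 to 2058 CPM. Of the 12 erythroid and platelet markers, 4 were at 0 in all 4 libraries, namely Hba-a1, Hbb-bs, Pf4 and Ppbp. Gp1ba, given above, made up only part of these sums, and the part of such cells was not tested. The 14 genes of RNA quality and stress summed to 39060 to 40720 CPM at 1 ng/mL and 39780 to 41800 CPM at 10 ng/mL. Loci overlapping satellite repeats took 3.41% to 5.48% of gene counts in the 4 libraries.

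Without SCF there was 1 library per dose, so the difference between doses there has no replicate check. The labels call the 1 ng/mL library replicate 2 and the 10 ng/mL library replicate 1, so dose and replicate number cannot be told apart in these libraries. In these, 97 of 154 higher responders (63.0%) were above their 1 ng/mL level at 10 ng/mL, against 48.0% of all tested genes, and 101 of 151 lower responders (66.9%) were below it, against 51.8%. Gzmb was at 30.6 CPM with 1 ng/mL and 19.4 CPM with 10 ng/mL alone, below each of the libraries that had SCF at the same dose. Id3 was at 351 CPM at 1 ng/mL alone and 467 CPM at 10 ng/mL alone, so that 1 ng/mL without SCF already exceeded both libraries of 10 ng/mL with SCF. Skil was at 102 and 128 CPM and Smad7 at 23.8 and 35.8 CPM.

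Mcpt2 was at 604 CPM at 1 ng/mL alone and 3979 CPM at 10 ng/mL alone, beside 2874 to 3779 CPM and 4050 to 6719 CPM with SCF. Mcpt1 was at 2.55 and 27.2 CPM alone. A fit of dose by SCF, added after seeing the data, had to borrow the spread of these lone libraries from the other groups; it called 0 genes after adjustment in edgeR (0% of tested genes) and 584 at an unadjusted p under 0.05 (5.19%), no other tool was run on it, and no difference between the settings is drawn from it. The 1 ng/mL library without SCF had the highest share of satellite repeat counts in the series, 14.5%, and 3 counts in it corresponded to 2.55 CPM.

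**Figure D5:**
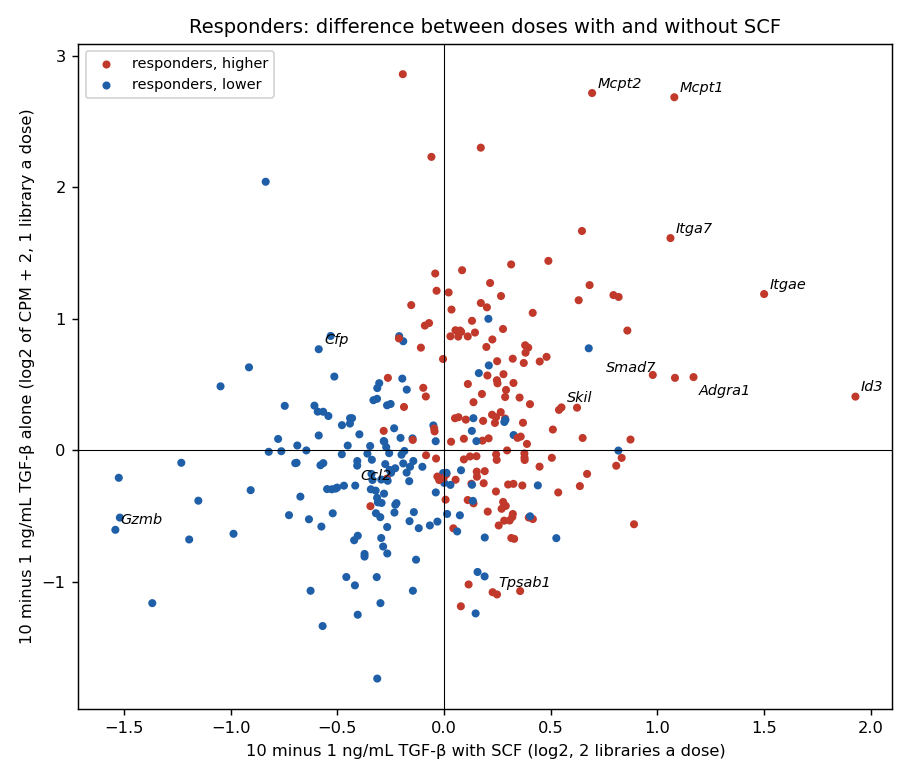
Difference between 10 and 1 ng/mL TGF-β for the 305 responders with SCF (horizontal axis, log2, 2 libraries a dose) and without SCF (vertical axis, log2 of CPM + 2, 1 library a dose); red points are higher and blue points lower responders. Mcpt2 and Mcpt1 stand high on the vertical axis, and Id3 farthest to the right.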

How the data were processed

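Bulk RNA of BMMCs was sequenced as 10 SmartSeq2 libraries. The authors deposited a table of whole-number read counts, 1 row a gene; the submitters' processing notes name STAR, HTSeq and DESeq2 with GRCm38 (mm10), without versions. The table held 49671 gene rows; the 5 rows that name no gene, which took 73.4% to 83.6% of all counted reads or alignments, were dropped. Members and gene lists were chosen with earlier results of these data known.

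Counts were fitted with edgeR 4.0.16 (R 4.3.3; filterByExpr, TMM, quasi-likelihood F test) on all 10 libraries with 1 mean for each of 6 groups, leaving 4 residual degrees of freedom; 2 against 2 libraries cannot go below p = 0.3333 in an exact permutation test. P-values were Benjamini-Hochberg adjusted over 11247 genes. The standard error was taken as the absolute log2 difference divided by the square root of F, and 95% intervals follow from them. Values without SCF are log2 differences of CPM with 2 CPM added. Named genes were 15 anchors, the called genes, the 8 responders per direction of smallest p among those whose doses did not overlap, the 8 bounded ones per direction of largest response, and up to 3 of smallest p in each of 27 lists; some of these genes are not reported here. Replicates correlated at 0.965 (1 ng/mL) and 0.968 (10 ng/mL) in log CPM. The code was tested on simulated data. Alternatives were DESeq2 1.42.0, limma 3.58.1 (voom), other filters, margins, sample sets, a replicate block and omitted libraries. Responders taken from TGF-β alone, single-library pairs, the fit of dose by SCF and the background of at least 20 CPM were added after seeing the data. Loci are from GENCODE vM21, promoters from RefSeq.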

Additional observations from a re-analysis of the deposited data

How the results depend on the processing

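With 2 libraries a dose, the calls between 10 and 1 ng/mL depended on the setting. The count of 2 called genes became 0 with the DESeq2 Wald test (46 genes at an unadjusted p under 0.05), limma-voom (306), a filter of 10 CPM in 2 libraries, an added 1.5-fold threshold or only the 4 libraries compared, and 1 (Gzmb) with the 6 libraries that received SCF. It became 8 with no filter, 6 of them responders. The count of called responders was 0, 0, 0, 0, 0 and 1 in the first 6 of these settings. Leaving out a library gave 0 to 5 called genes and 0 to 5 called responders, with 0 without replicate 1 of either dose and 5 without replicate 2 of 10 ng/mL. It gave 247 to 339 responders, 18 to 78 bounded ones, 27 to 54 further out at an unadjusted p under 0.05, 61.1% to 86.1% in the direction of the response, and a median toward the response of 0.0795 to 0.332. DESeq2 bounded 14 responders and put 18 further out at an unadjusted p under 0.05; with the added 1.5-fold threshold 9 were further out. A 2-fold margin bounded 200, the narrowest margin 0 and a 90% interval 82. Of 72 responders of at least 4-fold, 1 was called, 1 bounded, 18 further out at an unadjusted p under 0.05 and 91.7% in the direction of the response. Gzmb and Id3 each lost their call in 8 of 17 alternatives. Among genes whose difference was followed, Kif11 changed sign to -0.11 without replicate 1 of 1 ng/mL (0.48 at most, without replicate 2 of 1 ng/mL) and Itgax to -0.30 without replicate 1 of 10 ng/mL (0.92 at most, without replicate 2 of 10 ng/mL). The causes were not tested.

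The labels give the groups the same replicate numbers but no shared culture or day, so the number is not a pairing by design. Deviations of same-numbered libraries correlated at 0.345 between the doses, 0.383 and 0.353 between SCF alone and each dose, and -0.025 to -0.006 with IL-3 alone. With the replicate block 5 genes were called, all 5 responders (Adgra1, Gzmb, Id3, Mcpt1 and Mcpt2). With the replicate block on only the 6 libraries with SCF 17 genes were called, 11 of them responders, 109 responders were bounded and 103 lay further out at an unadjusted p under 0.05. The 17 were Adgra1, Calr, Ccl2, Ccr1, Cpa3, Fcer1a, Ftl1, Gm10800, Gm37648, Gzmb, Id3, Itgae, Lgals1, Mcpt1, Mcpt2, Serpina3g and Slc45a3. Depth limits what can be said of genes below about 20 CPM, few of which could be bounded: 3417 of the 3419 bounded genes had at least 20 CPM.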

Other observations

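Other lists moved little between 10 and 1 ng/mL. Glycolysis and hypoxia genes had 17 of 22 tested below 0 with a median of -0.11, and Pkm, pyruvate kinase, was at 446 and 541 CPM with 1 ng/mL and 391.5 and 434 CPM with 10 ng/mL, a difference within 1.5-fold. Chaperones of the endoplasmic reticulum included Calr at 469 and 551 CPM and at 365 and 448 CPM (-0.33, unadjusted p = 0.0498), the only one of 18 tested members of the unfolded protein and amino acid response at that level. The 12 tested interferon-stimulated genes had a median of -0.17 and 0 at an unadjusted p under 0.05. The 15 tested STAT5 and survival genes had a median of -0.06, and 1 was higher at that level, Id1, which also stands among the TGF-β targets. Over all tested genes, 163 were higher and 150 lower at 10 ng/mL at an unadjusted p under 0.05.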
